A study of Drosophila melanogaster with 4 samples.

Results

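The regions described here are the places on U at which adult fly heads showed enrichment of Su(var)3-7, a zinc-finger protein of heterochromatin. They were chosen by their sequence name alone, as the entries on U that the combined list marks as enriched, and numbered 462 of 9474 in that list (4.88%). U is the part of the FlyBase release 5 assembly of Drosophila melanogaster that strings together scaffolds without a known chromosome, over 10049037 bp. The same entries numbered 181 of 6780 in ChIP replicate 1 and 250 of 6658 in ChIP replicate 2.

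Su(var)3-7 binds heterochromatin protein 1 and the histone methyltransferase Su(var)3-9, and its dose changes how far silencing spreads into genes placed next to heterochromatin (position-effect variegation). Heterochromatin is rich in satellite DNA and transposable elements, which are hard to assemble, so many of the scaffolds collected on U come from it. Scaffolds that follow each other on U need not be neighbours in the genome. A gap or a cluster on U therefore describes the joined sequence and is not a map.

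The ChIP group held 2 libraries, from chromatin of head nuclei precipitated with the antibody Q3448 against Su(var)3-7. The input group held 2 libraries of the same kind of chromatin without the antibody step, and each input served 1 ChIP library. Both groups came from wild-type Oregon-R flies of the modENCODE stock, mixed adults whose sex and exact age the labels do not give. Heads hold neurons, glia, fat body and other cells, so a region is an average over cell types. Nothing in the labels says that the replicates came from separate cages, and the spread between them may be technical.

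A region comes with its coordinates and with the authors' own score, whose scale the sources used here do not give. Scores served to describe and rank regions within a list. Depth is unknown, since no read counts were among the files. A sign-flip test over 2 replicates, exact and two-sided, has a smallest p of 0.5, so U was set beside other sequences by values alone.

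Regions on U were sparse, had few long domains among them and were high in score. They covered 4.79% of U in replicate 1 and 7.38% in replicate 2, a mean of 6.09% ± 1.83 (SD, n = 2). On the heterochromatic arms, which are assembled pericentric sequence with a chromosome assigned (2LHet, 2RHet, 3LHet, 3RHet and XHet), the shares were 23.0% and 31.4%, and on the main arms 14.2% in each replicate. The difference in covered share thus exceeded the spread between replicates. U also held fewer regions per Mb, 21.4 ± 4.86, against 55.8 ± 6.25 on the heterochromatic arms and 49.2 ± 1.55 on the main arms (SD, n = 2 each). The sources used here do not say how reads that match several places were treated.

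Long domains were few on U. The longest region had 10978 bp in replicate 1 and 12358 bp in replicate 2. Regions of at least 10 kb numbered 1 of 181 and 3 of 250, and held 2.28% and 4.72% of the covered length of U. On the heterochromatic arms they held 39.0% and 46.9%, and on chromosome 4 they held 21.9% and 26.0%. On the main arms they were few by number too, 82 of 5985 and 122 of 5724, and held 9.18% and 13.7%. Median lengths were closer, with 2112 and 2188.5 bp on U, with 2250 and 2773 bp for the heterochromatic arms, and with 2201 and 2177 bp for the main arms. The mean length was 2814 ± 218 bp on U, 4842 ± 518 bp for the heterochromatic arms and 2880 ± 89.2 bp for the main arms (SD, n = 2 each). U and the heterochromatic arms thus lay further apart in their long domains than in the median region.

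The median score on U was 0.953 in replicate 1 and 1.06 in replicate 2. As a mean of both it was 1.00 ± 0.0726, against 0.804 ± 0.0761 for the heterochromatic arms, 0.621 ± 0.0569 for chromosome 4 and 0.642 ± 0.0217 for the main arms (SD, n = 2 each). U stood highest of these 4 kinds of sequence within each replicate list. In the combined list the order of the medians was U with 0.862, the heterochromatic arms with 0.621, the main arms with 0.457 and chromosome 4 with 0.397.

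The combined list added many short regions on U. Its 462 regions covered 1129 kb, or 11.2% of U, with a median length of 1869 bp and the middle 50% between 1191 and 2747 bp. Of these, 139 (30.1%) were shorter than 1301 bp, the shortest length in either replicate list, against 19.8% of those in the heterochromatic arms, 16.1% for chromosome 4 and 14.3% for the main arms. A group of 40 regions on U was less than 10 bp longer than the shortest length in the combined list, 1001 bp. That was 8.66% of the regions on U, against 4.10% of those in the heterochromatic arms, 3.90% for chromosome 4 and 1.96% for the main arms.

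The next question was how the regions gather along U. In windows of 100 kb the combined list had a median of 4 regions and a mean of 4.57, and 3 windows were empty. The 10 fullest windows held 109 regions (23.6%), and 28 windows held 50% of all regions. The variance of the number per window was 2.11 times its mean on U, against 2.94 on the heterochromatic arms and 2.61 on the main arms. On chromosome 4 it was 1.16. In replicates 1 and 2 the ratio was 2.21 and 2.39 on U, and 2.28 and 2.45 on the main arms. The heterochromatic arms had 3.47 and 2.50, and chromosome 4 had 0.978 and 0.514. This ratio can rise with the number of regions per window. U had the fewest regions per Mb in each list, so the ratio does not rank bunching between these sequences.

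**Figure D1:**
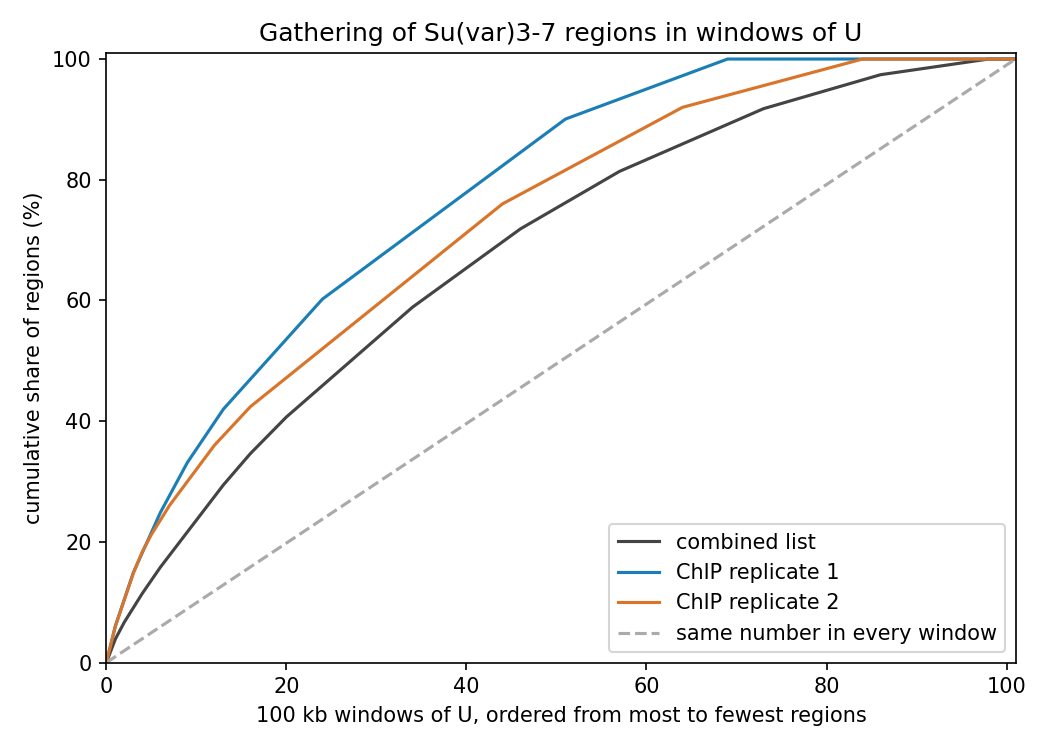
Cumulative share of Su(var)3-7 regions on U (vertical axis, percent) over the windows of 100 kb ordered from most to fewest regions (horizontal axis), for the combined list, replicate 1 and replicate 2, with a dashed line for equal windows. The 10 fullest windows hold 23.6% of the combined regions, 35.4% of replicate 1 regions and 32.0% of replicate 2 regions, lists that differ in their number of regions.

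One stretch, bounded on the combined list, was dense in all 3 lists. The 4 windows of U:1000001-1400000 held 53 combined regions, with 11, 11, 13 and 18 in order of position, and they were the 4 fullest windows by number. Enriched regions covered 51.6% of the stretch in the combined list, against 9.57% of the rest of U. The replicates showed the same contrast, with 25.3% against 3.94% in replicate 1 and 40.8% against 6.00% in replicate 2. Its first window fell behind the other 3 in the replicates, with 5 regions in replicate 2 and 2 in replicate 1. Those other 3 were the 3 fullest in each. The stretch was picked after these values were seen, so the contrast is a description.

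Within the stretch, coverage was highest in U:1300001-1400000 with 63.9%, followed by U:1100001-1200000 with 60.0% and U:1200001-1300000 with 57.4%. The windows next in covered share lay elsewhere, U:5600001-5700000 with 34.4% from 9 regions and U:1900001-2000000 with 33.4% from 10 regions. Median lengths were 2370 bp in the stretch and 1825 bp on the rest of U in the combined list, 2577 and 2167.5 bp in replicate 2, and nearly equal in replicate 1, with 2140 and 2110.5 bp. The regions in the stretch were lower in score, with a median of 0.657 against 0.884 in the combined list. In both replicates the median score was lower too, with 0.769 against 0.992 in replicate 1 and 0.823 against 1.08 in replicate 2.

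Of the 5 longest regions, 3 lay in that stretch. The 5 combined regions were U:1174389-1193274 (18.9 kb, score 1.15), U:1963706-1981471 (17.8 kb, score 1.09), U:1273273-1286382 (13.1 kb, score 0.888), U:1248951-1261858 (12.9 kb, score 1.10) and U:5766001-5777055 (11.1 kb, score 0.746). All 5 were found in both replicates, in 1 to 3 pieces each. The pieces of replicate 2 covered 83.5% to 95.7% of their length and those of replicate 1 covered 67.8% to 90.6%. In the first of them, 2 regions of each replicate covered 93.7% and 90.6% in replicates 2 and 1. A length of 10 kb was reached by 6 combined regions in all.

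Neighbouring regions lay at very unequal distances. The 461 gaps between combined regions had a median of 8957 bp and a mean of 19298 bp, and ran from 3 bp to 247 kb. Gaps under 1 kb made up 16.1% and gaps under 5 kb 38.2%. Joined at gaps under 5 kb, the regions formed 286 chains, of which 200 were single regions and 10 had at least 5 members. The longest chain, U:1304947-1384551, held 17 regions in 79.6 kb and was 74.0% covered. It lies in the dense stretch, where the longest chain of replicate 2 was found as well, 12 regions in U:1318699-1384442. In replicate 1 the longest chain had 5 regions, in U:1165116-1199532.

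The longest gaps of the combined list were U:621372-868589 (247 kb), U:3662608-3868714 (206 kb), U:5214407-5387050 (173 kb), U:8067042-8204615 (138 kb) and U:4117146-4251780 (135 kb). Since nearly every replicate region met a combined one, few could lie in a gap, and the 5 held 1 region, of replicate 2, in the second. The fifth gap ends where the highest-scoring region of U begins.

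Scores and lengths were only loosely related on U. Spearman's rho between score and length was 0.30 over the 181 regions of replicate 1 and 0.23 over the 250 of replicate 2, as a description across regions of 1 library each. On the other sequences longer regions had clearly higher scores, with rho of 0.60 and 0.56 for the heterochromatic arms, 0.75 and 0.81 for chromosome 4, and 0.68 in both replicates for the main arms. In the combined list rho on U was -0.12, against 0.25 on the heterochromatic arms and 0.62 on the main arms. The negative sign rested on the short regions: rho was 0.22 over the 323 combined regions of at least 1301 bp. It was also positive, at 0.25, over the 287 regions whose score no other region of the list had, a choice made with the data seen.

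By length class, the scores of the combined list were highest among the shortest regions. The 139 regions under 1301 bp had a median score of 1.22, with the middle 50% between 0.663 and 1.95. The 117 regions from 1301 bp to below 2000 bp had the lowest, 0.668. The median was 0.835 for the 173 regions from there to below 5000 bp and 0.958 for the 33 regions of at least 5000 bp. A score of at least 2 was reached by 33 regions of the shortest class (23.7%) and by 18 of the others, 3, 14 and 1 in order of length. The replicates, which hold no region under 1301 bp, had the lowest median in the class below 2000 bp. From short to long the 3 medians were 0.727, 1.05 and 1.05 in replicate 1 and 0.897, 1.10 and 1.13 in replicate 2.

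**Figure D2:**
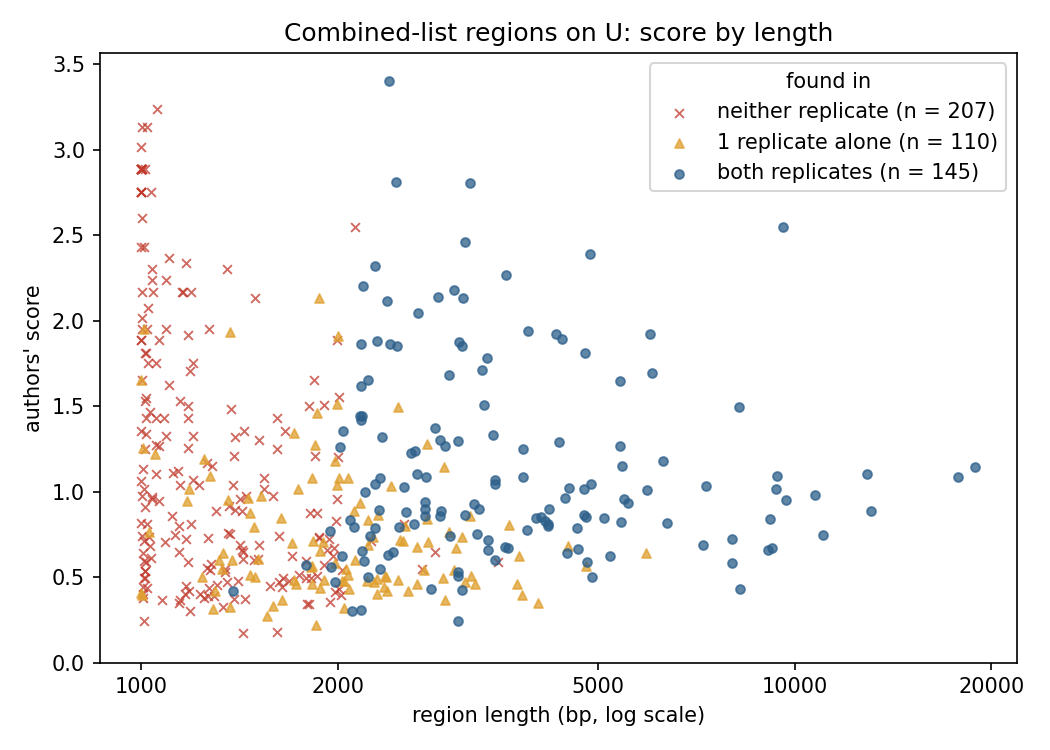
Authors' score (vertical axis) by length (horizontal axis, bp, log scale) for each of the 462 combined regions on U, marked by whether a region of both replicates, of 1 replicate alone or of neither overlaps it. Of the 10 highest scores, 9 belong to regions of at most 1058 bp found in neither replicate, and every region under 1301 bp lacks a partner in at least 1 replicate. Of all combined regions on U, 44.8% were found in neither.

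High scores were often held by regions with no counterpart in the replicates. The highest score on U, 3.40, belonged to U:4251781-4254179, of 2399 bp, which 1 region of each replicate overlapped. It was also the highest-scoring region of U in replicate 1, with 3.29, and in replicate 2, with 3.50. The 9 regions that followed it had scores from 3.24 to 2.89, lengths of at most 1058 bp and no partner in either replicate. They were U:3371863-3372920, U:2830282-2831283, U:6200544-6201563, U:7557079-7558079, U:2156618-2157620, U:2251696-2252696, U:4075006-4076008, U:4512274-4513287 and U:6288491-6289491. The last 5 of these were named by position from 9 regions on U tied at 2.89, so the other 4 rank equally. Of the 9, 8 had a score that at least 1 other region of the combined list had to the last digit. Among the 50 highest scores, 35 regions were found in neither replicate, 14 in both and 1 in replicate 2 alone. Of all combined regions, 44.8% on U and 24.4% over all sequences were found in neither.

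Among regions found in both replicates the highest scores belonged to longer regions. After U:4251781-4254179 came U:6832299-6834753 (score 2.81), U:9339752-9342941 (2.81), U:4021410-4031016 (2.55) and U:7843128-7846255 (2.46). The other 5 had scores from 2.39 to 2.18 and were U:9550230-9555101, U:9904673-9906956, U:6671020-6674638, U:9593234-9595417 and U:4667157-4670168. Lengths ran from 2184 to 9607 bp with a median of 3070 bp, and none of the 10 shared its score with another region. The longest, U:4021410-4031016, had 1 region in each replicate over at least 99.3% of its length.

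Scores were higher towards the end of U in all 3 lists. Spearman's rho between score and start coordinate was 0.35 in the combined list, 0.32 in replicate 1 and 0.37 in replicate 2, across regions. In steps of 1 Mb, with the last 49.0 kb added to the last step, the median score of the combined regions was 0.527 in the first step (37 regions) and 1.34 in the last (50 regions). The first and last medians were 0.831 and 1.57 in replicate 1 (6 and 25 regions) and 0.669 and 1.45 in replicate 2 (16 and 32 regions). The medians of the steps between did not follow an even order. In the fifth step, replicate 1 had its highest median, 1.84, from 6 regions alone.

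**Figure D3:**
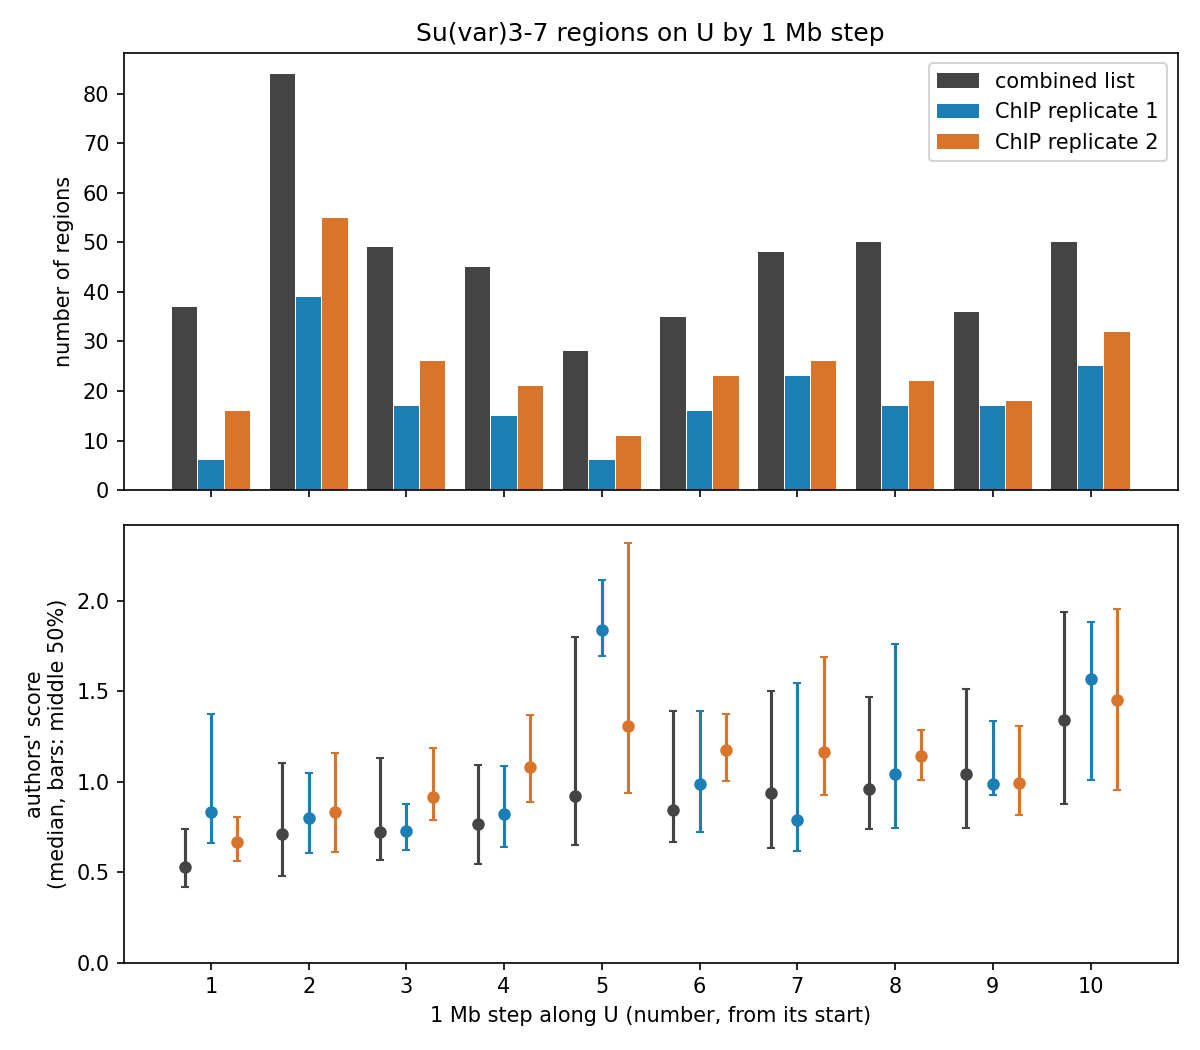
Number of regions (upper panel) and authors' score (lower panel, median with bars over the middle 50%) in the 10 steps of 1 Mb along U, for the combined list, replicate 1 and replicate 2. The second step holds the most regions in each list (84, 39 and 55), and the last step has the highest median score in the combined list and in replicate 2.

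Over all regions of a list, length had little relation to position, with rho of -0.04 in the combined list, -0.07 in replicate 1 and -0.10 in replicate 2. Among the 145 combined regions found in both replicates, however, regions were shorter towards the end of U, with a rho of -0.43. Over the shared regions of the replicate lists this rho was weaker, -0.13 in replicate 1 and -0.34 in replicate 2. The rho of score with position was 0.26 over these 145 and 0.37 over the 317 others. It was 0.31 over the 161 shared regions of replicate 1 and 0.22 over the 151 shared regions of replicate 2. The share of combined regions found in neither replicate ran between 32.0% in the last step and 57.1% in the fifth, with no steady order between. What else changes along U, such as the length of its scaffolds, was not tested.

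The replicates were then compared with each other on U. Of the regions of replicate 1, 161 of 181 (89.0%, exact 95% interval 83.5 to 93.1%) met a region of replicate 2. Over all sequences this share was 83.3%. Of the regions of replicate 2, 151 of 250 (60.4%, 54.0 to 66.5%) met one of replicate 1, against 81.2% over all sequences. Sharing on U was thus lopsided, as it was on the heterochromatic arms (90.6% and 61.3%), and unlike the main arms (82.6% and 83.9%). The intervals cover counting error only.

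To see what overlap the amount and spacing of regions give by themselves, replicate 1 was shifted along U by every multiple of 1 kb, with the end of U joined to its start. The replicates shared 434 kb, against a mean of 35.5 kb over the shifts, a ratio of 12.2. After shifts of at least 10 kb the shared length ran from 8.47 to 102 kb. On average the shifted lists left 13.1% of replicate 1 regions and 9.46% of replicate 2 regions shared. Shifts of at most 100 kb either way gave a higher mean of 77.5 kb and a ratio of 5.60.

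The shared length fell off within a few kb. It was 335 kb after a shift of 1 kb, 225 kb after 2 kb, 122 kb after 5 kb and 102 kb after 10 kb (means of both directions). It was 44.7 kb at 50 kb and 71.6 kb at 100 kb. Most of the overlap was thus lost within 5 kb. With the dense stretch left out, also a choice made with the data seen, the ratio over all shifts was 15.0.

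**Figure D4:**
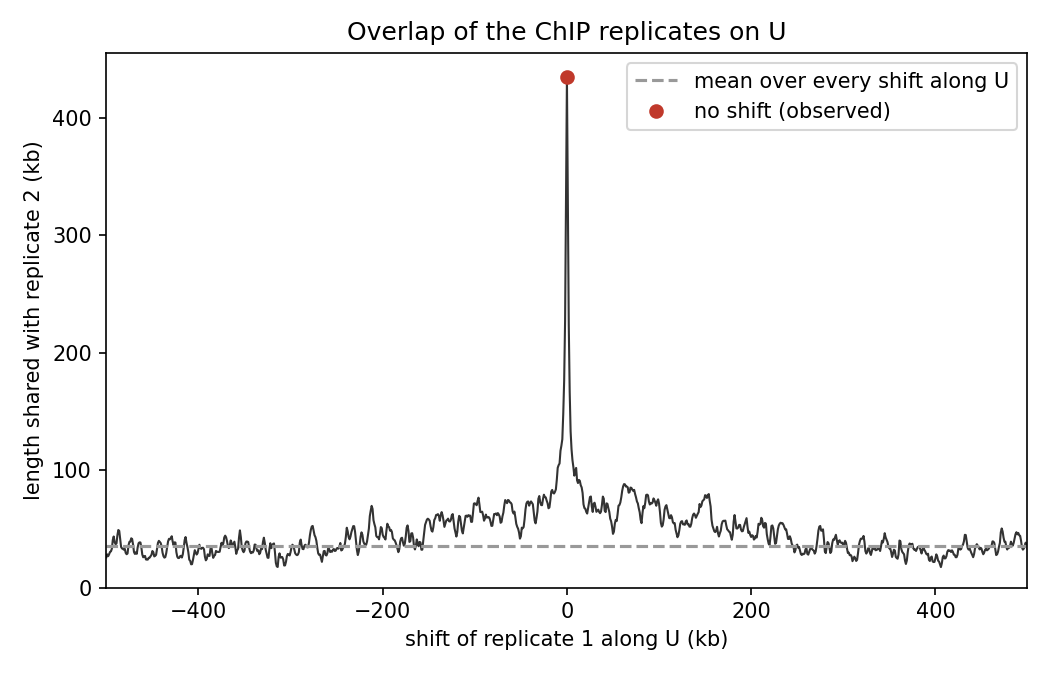
Length shared by the replicates on U (vertical axis, kb) when replicate 1 is moved along U by the distance on the horizontal axis (kb, up to 500 kb either way). The point marks the observed 434 kb and the dashed line the mean of 35.5 kb over every shift, and the curve is down to 102 kb at 10 kb.

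Ratios to the shifted mean are bounded by the covered share, so they do not rank the sequences. On U the ratio was 12.2, where full nesting of the smaller list in the larger would have given 13.5. The heterochromatic arms had 2.69 of a possible 2.88, chromosome 4 had 1.85 of 2.18 and the main arms had 5.45 of 6.82. The share of replicate 2 regions that met replicate 1 after shifts averaged 9.46% on U, against 41.1% for the heterochromatic arms, 67.6% for chromosome 4 and 25.8% for the main arms. Their observed shares were 60.4%, 61.3%, 80.7% and 83.9%, so shifts gave the least sharing on U.

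Replicate 2 covered more of U than replicate 1. Its regions covered 742 kb, against 481 kb in replicate 1, a ratio of 1.54. The ratio was 1.36 for the heterochromatic arms, 1.06 for chromosome 4 and 0.999 for the main arms. Of the bases of U, 434 kb lay in regions of both replicates, 308 kb in replicate 2 alone and 47.3 kb in replicate 1 alone. By windows of 100 kb, replicate 2 had more regions in 49 windows, replicate 1 in 9, and the numbers were equal in 43, of which 15 were empty in both. The excess was not confined to the dense stretch: without that stretch the ratio was 1.52. Replicate 2 covered 40.8% of the stretch and replicate 1 covered 25.3%, against 6.00% and 3.94% of the rest of U. In percentage points the excess was thus larger in the stretch, but in proportion it was similar. The covered share of the stretch was 6.80 times that of the rest in replicate 2 and 6.43 times in replicate 1.

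The same windows were full in both replicates. Across all windows of 100 kb, Spearman's rho between the replicates was 0.79 for the number of regions and 0.88 for the covered share, as a description over windows that each join whatever scaffolds lie there. The largest number was in U:1300001-1400000 in each, with 15 regions in replicate 2 and 11 in replicate 1. Regions were present in both replicates in 67 windows, in replicate 2 alone in 17 and in replicate 1 alone in 2.

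Where a region of one replicate met exactly 1 of the other, the edges lay close together. There were 134 such pairs, with a median distance of 147.5 bp between starts and 145 bp between ends. The regions of replicate 2 were longer in 102 of the 134 pairs, with a median length of 2618 bp in replicate 2 and 2180 bp in replicate 1. The ranks of the scores were similar, with Spearman's rho of 0.84 over the pairs and 0.79 over all 161 shared regions of replicate 1.

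Regions without a partner were short in both replicates. Their median score lay below that of shared regions in replicate 2 and above it in replicate 1. The 99 unshared regions of replicate 2 had a median length of 1879 bp, against 2835 bp for its shared ones, and a lower median score of 0.893 against 1.13. The 20 unshared regions of replicate 1 had a median length of 1576 bp against 2187 bp, and a higher median score of 1.17 against 0.938. Of the 10 highest-scoring regions of U in replicate 1, 6 had a partner in replicate 2 and 4 of these met one of its 10 highest. Of the 10 highest in replicate 2, 8 had a partner in replicate 1. The 4 without a partner in replicate 1 were U:1793131-1795007 (score 2.84), U:6042032-6043452, U:7531144-7532978 and U:8684695-8686671, and all but the first of these had the same score, 2.55, to the last digit.

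Last, the combined list was set against the replicates, whose libraries it combines, so the lists are not independent. It took in 181 of 181 regions of replicate 1 on U and 247 of 250 of replicate 2. The same shares over all sequences are not given here, so these counts cannot be read as particular to U. Of its 462 regions on U, 145 (31.4%) were found in both replicates, against 53.2% over all sequences. A further 91 (19.7%) were found in replicate 2 alone and 19 (4.11%) in replicate 1 alone, against 11.5% and 10.9% over all sequences. The largest class, 207 regions (44.8%), was found in neither, against 24.4% over all sequences. On the heterochromatic arms 37.1% were found in both and 36.0% in neither. Restricted to regions of at least 1301 bp, 44.9% of those on U were found in both. The shares of the other sequences given here carry no such limit, so they do not compare with this value.

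The classes differed in length and score. Regions found in both replicates had a median length of 3230 bp and held 617 kb, 54.6% of the length covered on U. Those found in neither had a median length of 1180 bp and held 276 kb (24.4%), and 125 of the 207 (60.4%) were under 1301 bp. This class was short over all sequences too, with a median of 1256.5 bp and 54.9% under 1301 bp. On U the median scores were close, 0.965 for both and 0.958 for neither. The median was 0.643 for replicate 2 alone and 0.704 for replicate 1 alone. The medians for both and neither lay further apart on the heterochromatic arms, 0.759 and 0.594, and on the main arms, 0.641 and 0.354. Regions found in neither replicate lay at a median distance of 9607 bp from the nearest replicate region, and 23 of 207 lay within 1 kb of one.

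By the score of the combined list, the strongest regions of the single-replicate classes lay below the 10 highest found in both. In their own replicate list all those named here scored higher, up to 2.73 in replicate 2 and 2.84 in replicate 1. In replicate 2 alone they were U:6614975-6616844 (2.13), U:9464457-9465466 (1.95), U:2180605-2181974 (1.93), U:9224064-9225064 (1.65) and U:3927659-3929652 (1.51). In replicate 1 alone they were U:1792200-1794198 (1.91), U:6041864-6044339 (1.49), U:8316865-8318578 (1.34), U:9169269-9172009 (1.28) and U:8684804-8686651 (1.27).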

How the data were processed

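The deposited files are 3 lists of regions of significant enrichment, 1 for each ChIP replicate and 1 for the set that combines them. Coordinates are FlyBase release 5, per the file headers. The score of each region was deposited by the authors, and the sources used here do not give its scale, the region caller, the threshold or the combining step. Bowtie 0.12.7 is named in the submitters' processing notes, without its role. Per the labels, each input served the ChIP library of its own number. The 3 regions marked as depleted lie outside U and were left out. Of all regions, 4 were trimmed to the ends of their sequence, none of them on U.

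Overlap means at least 1 bp. A window takes the regions whose midpoint it holds. Circular shifts of replicate 1 along each sequence were enumerated in steps of 1 kb, and none was drawn at random. Functions were tested on simulated data. Named regions follow 1 rule: the 10 highest scores overall and among regions found in both replicates, the 5 longest regions and gaps, the 5 windows with the most regions and the most covered length, and the 5 highest scores of each other class. The members and this rule were chosen with earlier results of these data known. Genes were not assigned, because the only annotation used here is release 6. The depth is unknown. Python 3.11.15, pandas 2.3.3 and scipy 1.17.1 were used.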

Additional observations from a re-analysis of the deposited data

How the results depend on the processing

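No paired analysis was possible because region lists exist for the ChIP group alone, so shared numbers join no measured pairs. Of 44 alternative values for 11 results, 33 stayed within their limit: the SD of the replicates, the exact 95% interval of a share, 1.5 times for counts and ratios, and 0.05 for the rank correlation between replicates. Leaving out a replicate gave covered shares of 4.79 to 7.38%, which cannot pass that limit by construction. A reciprocal overlap of 50% reduced the shared regions to 74.6% in replicate 1 and 54.0% in replicate 2, and gave a rank correlation of scores of 0.85. With it, the share of replicate 1 regions over its shifted mean was 20.7. That is a ratio of shares of regions, while the ratio of 12.2 is of shared length, so the values do not compare directly. Shifts of at most 100 kb gave a ratio of shared length of 5.60. Combined regions of at least 1301 bp were found in both replicates in 44.9% of cases and turned the rho of score with length to 0.22, and leaving out tied scores turned it to 0.25. The upper 50% by score was cut at the median of each whole list, which kept 84.4% of the combined regions on U. In the replicates it kept 77.3% and 84.8%. Among the combined regions kept, the rho of score with length was -0.23. The rho of score with position was 0.30 among them, against 0.29 without the first Mb. The causes were not tested. Leaving out 1.0 to 1.4 Mb, tied scores or the first Mb was chosen after seeing the data. With depth unknown, absence of enrichment and too few reads cannot be told apart.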

Other observations

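Scores recurred to the last digit, in the combined list more often on U than elsewhere. In the combined list 175 of 462 regions on U (37.9%) had a score that at least 1 other region of the list had, against 25.7% for the heterochromatic arms, 14.1% for chromosome 4 and 16.2% for the main arms. In the replicate lists the shares were 27.1% and 20.0% on U, against 24.6% and 21.2% in the heterochromatic arms and 17.7% and 18.6% in the main arms, so U was not above the heterochromatic arms in replicate 2. The tied regions on U were short, with a median of 1261 bp against 2352 bp for the others in the combined list. Of the 207 combined regions on U found in neither replicate 59.4% were tied, and of the 145 found in both 6.90%. Over all sequences the shares were 38.5% and 6.86%, so the contrast between these classes was not confined to U.

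Many of the repeated values were spaced in simple ratios. The commonest score of the combined list was 0.430, held by 35 regions. Measured from it, 2 raised to the difference was a ratio with a denominator of at most 10, within 1e-06, for 10 of the 11 scores that at least 3 regions on U held, and for 86 of the 175 tied regions (49.1%). It was 11 to 2 for the score of 2.89 (9 regions on U, 14 in the list, at most 1014 bp on U, all 9 in neither replicate) and 5 to 1 for 2.75 (5 on U). It was 10 to 3 for 2.17 (5 on U) and 2 to 1 for 1.43 (5 on U). In replicate 1 the score of 2.55, held by 3 regions on U without a partner, stood at 9 to 2 above the commonest score of that list. Counting untied regions too, such ratios were met by 20.6% of the combined regions on U, 7.30% on the heterochromatic arms and 1.32% of those in the main arms. In replicates 1 and 2 the shares were 12.7% and 12.0% on U, 5.01% and 4.28% in the heterochromatic arms and 2.17% and 1.87% in the main arms. The sources used here do not say what the whole numbers are.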
